A study of Mus musculus with 8 samples.

Results

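Calcium is held in the endoplasmic reticulum (ER), released near mitochondria and refilled from outside the cell. In hematopoietic stem cells (HSCs) labelled Mitol KO or Control, 9 genes that encode the pumps and channels of this circuit were followed. They were chosen by gene symbol from the count table and comprise the SERCA pumps Atp2a2 and Atp2a3, the IP3 receptors Itpr1, Itpr2 and Itpr3, the mitochondrial uniporter genes Mcu and Micu2, and Stim1 and Orai1 of store-operated entry. They are 9 of 22065 named genes in the table. All 9 were among the 16444 genes that passed the expression filter. In Mitol KO HSCs Atp2a3 was lower by 18.3% and was the only one of the 9 past the threshold of the test, a call that was lost when any 1 of the 8 libraries was left out (edgeR adjusted p between 0.0549 and 0.142), with DESeq2 size factors, with no expression filter and with the replicate number as a block. Its paralog Atp2a2 was 21.5% higher on average without passing it, and the ratio of the pump mRNAs did not overlap between the groups. Itpr3 was lower in every Mitol KO library than in every control library and missed the threshold, and the intervals of Itpr1, Mcu, Micu2, Stim1, Orai1 and Itpr2 included no change.

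The data are RNA-seq of 8 libraries, 4 labelled Mitol KO and 4 labelled Control, each prepared from 100 sorted bone marrow HSCs of C57BL/6 mice at 8 to 10 weeks of age. Mitol KO mice carried Mitol Flox/Flox and MX1-cre, and control mice carried Mitol Flox/Flox without the Cre. Both received Poly:IC, a double-stranded RNA mimic that induces the interferon-responsive MX1 promoter, and HSCs were taken 1 week later. MX1-cre also recombines outside HSCs, in other hematopoietic cells and in further interferon-responsive cells, so the floxed gene was not deleted in HSCs alone. The labels do not say whether the libraries of a group came from separate mice, and the p-values measure only the spread between these libraries, which may be technical.

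MITOL, encoded by Marchf5, is a ubiquitin ligase of the outer mitochondrial membrane that also acts at contacts between mitochondria and the ER. SERCA pumps use ATP to move calcium from the cytosol into the ER. Receptors for inositol trisphosphate (IP3), made by phospholipase C, let it out again, and at ER-mitochondria contacts the released calcium enters the mitochondrial matrix through the uniporter MCU, whose opening is gated by MICU proteins. When the ER store runs low, the ER sensor STIM1 opens the plasma membrane channel ORAI1. In HSCs, cytosolic and mitochondrial calcium have been studied in relation to cell division and mitochondrial activity.

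Counts on named genes summed to between 7214935 and 12398138 per library and did not differ between the groups beyond their spread (2-sided exact permutation test, p = 0.200). With 4 libraries against 4 there are 70 arrangements, and the smallest p such a test can give is 0.0286. Marchf5 itself had 276, 232, 308.5 and 281 normalized counts in Mitol KO libraries 1 to 4 and 299, 312, 333 and 262 in control libraries 1 to 4, a log2 fold change of -0.15 (SE 0.13, edgeR adjusted p = 0.498). The gene count therefore did not mark the deleted libraries, and it cannot separate deleted exons from the remaining ones. Markers of the HSC gate and HSC identity were all present, and 3 of 10, Kit and Hlf among them, were lower in Mitol KO libraries, with a summed level of 25301 to 29167 against 37200 to 44432 normalized counts. All 20 of 20 G2/M phase genes were higher, with sums of 10001 to 20771 against 4248 to 9586. Red cell markers summed to between 1065 and 5010.1 in Mitol KO and between 464 and 909 in control libraries, and Mitol KO library 3 stood apart with the globin gene Hbb-bs at 1048, against no more than 19.7 in the other libraries. These groups of genes moved with the genotype, and their part in the results below was not tested. In bulk samples fewer cells of a type and less RNA per cell cannot be told apart.

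Normalized counts are counts divided by a library size factor. Genes were tested with the quasi-likelihood fit of edgeR on all 16444 genes that passed its expression filter, and called at a Benjamini-Hochberg adjusted p under 0.05. Fold changes are log2 of Mitol KO over control, given with their standard error (SE). Across all genes tested 8.43% were called, 4.68% higher and 3.75% lower in Mitol KO libraries (770 and 616 genes, against 602 and 829 with library size alone, which leaves out the composition factors of TMM). Groups of 4 libraries that did not overlap were found for 15.4% of genes. Among the 9 calcium handling genes 1 was called, which is 11.1%, lower in Mitol KO and with none called higher. At an unadjusted p under 0.05 the edgeR test had 1 higher (Atp2a2) and 2 lower (Atp2a3 and Itpr3). DESeq2 called the same single gene, against 14.7% of all genes, and limma-voom called 1 as well. The groups did not overlap for 2 of the 9. The median log2 fold change of the 9 was -0.060, beside -0.020 over all genes tested. Of the 9, 3 had a positive log2 fold change, and 1, Atp2a2, with library size alone. Over all 16444 genes tested these numbers were 7841 and 6792. A single gene is 11.1% of the 9, so the share called is as near to that of all genes as 9 genes allow. The shares without overlap and with a positive fold change differed more from those of all genes, and these differences were not tested.

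**Figure D1:**
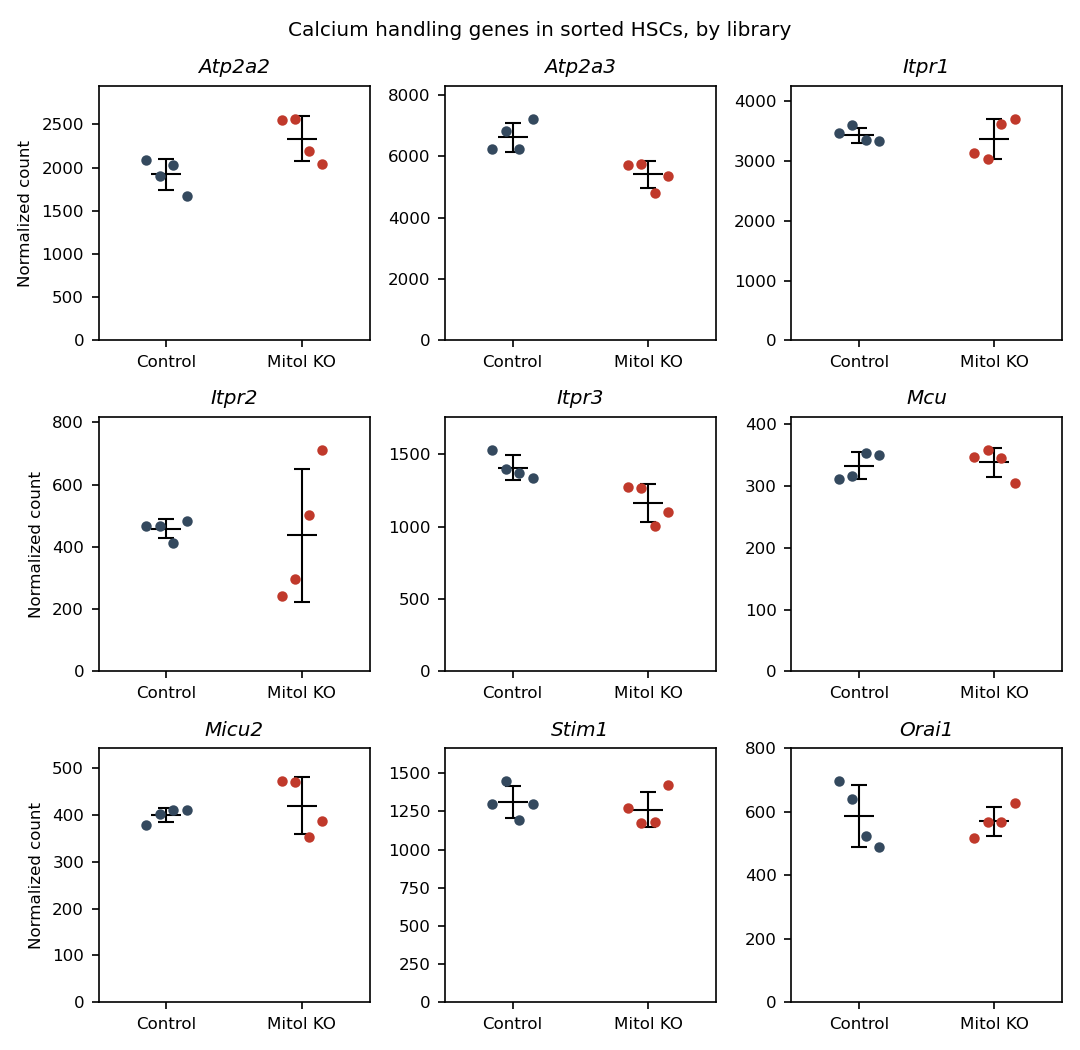
Normalized counts (y axis, from 0) of the 9 genes in 4 control (dark) and 4 Mitol KO (red) libraries, where each point is a library in order of its number and bars are the mean and SD. Atp2a3 and Itpr3 lie lower in every Mitol KO library than in any control library, Atp2a2 overlaps in a single Mitol KO library, and Itpr2 is spread from 242 to 711 in Mitol KO libraries against 414 to 485 in control libraries.

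Atp2a3 encodes SERCA3, the pump typical of blood cells, and lies at chr11:72851990-72883870 on the plus strand of GRCm39. Its normalized counts were 5725, 5762, 4812 and 5372 in Mitol KO libraries 1 to 4 and 6242, 6809, 6247 and 7210.2 in control libraries 1 to 4. Every Mitol KO library was below every control library, with the lowest value in library 3. The means were 5418 ± 440.2 in Mitol KO and 6627 ± 471 in control HSCs (SD, n = 4 each), and the log2 fold change was -0.31 (SE 0.085, 95% interval -0.49 to -0.13, edgeR adjusted p = 0.0436; 2-sided exact permutation test, p = 0.0286). By p-value it was at rank 1183 among the genes tested. The log2 fold change shifted most without Mitol KO library 3 (-0.24, edgeR adjusted p = 0.142). The call was lost when any 1 of the 8 libraries was left out, with adjusted p between 0.0549 and 0.142. It was also lost with DESeq2 size factors (adjusted p = 0.0525), with no expression filter (0.0705) and with the replicate number as a block (0.0527), and kept with DESeq2 (0.0174), limma-voom (0.0342) and library size alone (0.0315). Its direction was the same in each of these fits.

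Because Atp2a3 was the gene past the threshold, its promoter is shown. These are the 245 bases before the annotated start site, read 5′ to 3′ from GRCm39, chr11:72851745-72851989, plus strand, and matched to the RefSeq promoter entry of the gene, which is on GRCm38. Capitals mark the GC box GGGCGG on either strand.
Atp2a3 promoter: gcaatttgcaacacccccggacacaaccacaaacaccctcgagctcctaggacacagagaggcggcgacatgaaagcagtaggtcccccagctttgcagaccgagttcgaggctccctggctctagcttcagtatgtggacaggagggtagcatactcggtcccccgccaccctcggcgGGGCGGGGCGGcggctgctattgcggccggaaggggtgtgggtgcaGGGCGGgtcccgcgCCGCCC
The stretch held 4 GC boxes and no match to the E-box CACGTG, the CCAAT box CCAAT, the ER stress element part CCACG, the cyclic AMP response element part TGACGT or the full ER stress element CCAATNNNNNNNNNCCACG, searched on both strands (the full element contains CCAAT and CCACG). Its GC content was 66.1%, against a median of 52.4% over all promoters of 250 bases. A GC box occurred in 32.7%, an E-box in 6.02%, CCAAT in 33.8%, CCACG in 28.3%, TGACGT in 6.47% and the full ER stress element in 0.113% of 32851 RefSeq promoters of 250 bases. Of the 7 calcium handling genes with an entry, 6 (Orai1, Itpr2, Stim1, Atp2a3, Micu2 and Itpr3) held a GC box and 0 held the full ER stress element. CCACG occurred in 5 of the 7 (Orai1, Itpr2, Mcu, Micu2 and Itpr3) and CCAAT in 3 (Orai1, Itpr2 and Mcu). The E-box was in 1, Itpr3, and TGACGT in 1, Orai1. These matches describe letters in a window and are not binding sites.

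Atp2a2 encodes SERCA2, the pump of nearly all cells, and lies at chr5:122591575-122640903 on the minus strand. Its normalized counts were 2552, 2560.4, 2193 and 2041 in Mitol KO libraries and 2084, 1903, 2031 and 1677 in control libraries. In 3 of 4 Mitol KO libraries the level was above every control library, and library 4 fell within the control range. The means were 2337 ± 261 and 1923 ± 181 (SD, n = 4 each), with a log2 fold change of 0.26 (SE 0.099, 95% interval 0.046 to 0.48, edgeR adjusted p = 0.118; 2-sided exact permutation test, p = 0.0571). Without Mitol KO library 4 it passed the threshold (log2 fold change 0.34, adjusted p = 0.0356). Among Mitol KO libraries the 2 with the highest Atp2a2, libraries 1 and 2, also had the highest G2/M sums (20771 and 19484, against 16171 and 10001). In control libraries the G2/M sum was highest in library 3 (9586) and Atp2a2 in library 1. Of the 75-base words of the canonical GENCODE transcript of Atp2a2 4.12% occur in overlapping or similar transcripts such as Anapc7, on the opposite strand. Over all annotated exons of Atp2a2, 12239 bases, the overlap with exons of 3 genes on the opposite strand sums to 3714 bases. The library kit does not mark strand.

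Within each library, raw counts of Atp2a3 were 2.24, 2.25, 2.19 and 2.63 times those of Atp2a2 in Mitol KO libraries and 3.00, 3.58, 3.08 and 4.30 times in control libraries. The groups did not overlap, with means of 2.33 ± 0.203 and 3.49 ± 0.600 (SD, n = 4 each). A ratio within a library does not depend on its normalization, and it shows unequal change of the pumps without saying which of them moved. Among the other pumps, Atp2b4, a plasma membrane pump that expels calcium from the cell, fell from 6723 ± 623 to 4754 ± 562 normalized counts (log2 fold change -0.52, SE 0.099, edgeR adjusted p = 0.0138). It passed in 7 of 8 fits that each left out a library and missed narrowly without Mitol KO library 3 (adjusted p = 0.0504). The muscle pump Atp2a1 (log2 fold change -0.50, edgeR adjusted p = 0.465, about 27 against 37 normalized counts) was not called. Atp2b1, another plasma membrane pump (0.030, edgeR adjusted p = 0.894), and the Golgi pump Atp2c1 (0.015, edgeR adjusted p = 0.959) were not called either. Of 6 pump genes tested, 2 were lower and 0 higher past the threshold (33.3% called, beside 8.43% of all genes tested). Of the SERCA regulators only Tmx1 and Tmem64 could be tested, with log2 fold changes of 0.22 and 0.16 (edgeR adjusted p = 0.287 and 0.394). For these 0 were called by edgeR, by DESeq2 or by limma-voom, and 0 had an unadjusted p under 0.05.

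**Figure D2:**
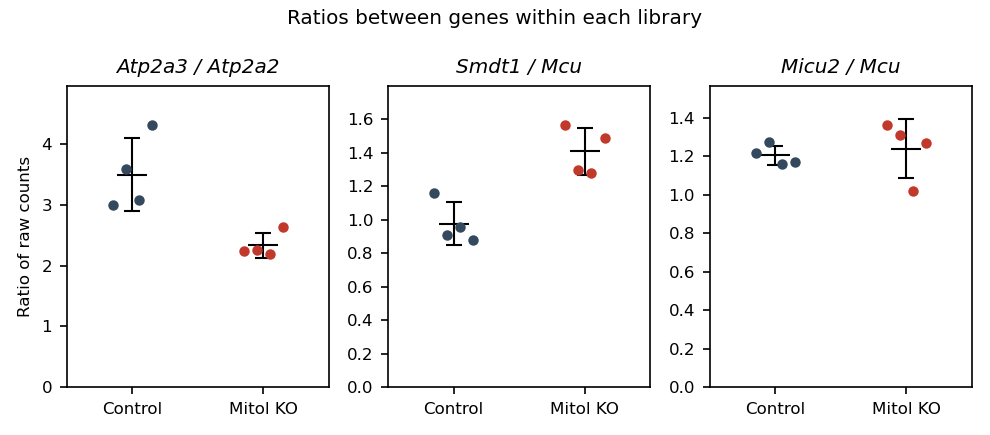
Ratio of raw counts of gene pairs (y axis, from 0) in each of 4 control (dark) and 4 Mitol KO (red) libraries, with mean and SD as bars. Atp2a3 over Atp2a2 lies at 2.19 to 2.63 in Mitol KO and 3.00 to 4.30 in control libraries, Smdt1 over Mcu is higher in every Mitol KO library, and Micu2 over Mcu overlaps.

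The 3 IP3 receptors, the channels through which the ER releases calcium, did not share a pattern. Itpr3, at chr17:27275971-27343866 on the plus strand, had 1270.3, 1269, 1001 and 1102 normalized counts in Mitol KO libraries and 1527, 1394, 1371 and 1332 in control libraries. Every Mitol KO library was below every control library. The means were 1161 ± 132 and 1406 ± 84.8 (SD, n = 4 each) and the log2 fold change -0.29 (SE 0.095, 95% interval -0.50 to -0.089), which missed the threshold (edgeR adjusted p = 0.0726; 2-sided exact permutation test, p = 0.0286). With library size alone it passed (adjusted p = 0.0390). Without Mitol KO library 3 its log2 fold change was -0.22 (adjusted p = 0.230).

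Itpr1, the main receptor by level in these cells, lies at chr6:108190048-108528070 on the plus strand. It had 3135, 3036, 3619 and 3701 normalized counts in Mitol KO libraries and 3464, 3602, 3346 and 3331 in control libraries. Mitol KO libraries 1 and 2 were below and 3 and 4 above all control libraries, and the log2 fold change was -0.044 (95% interval -0.24 to 0.15, edgeR adjusted p = 0.793). Itpr2, at chr6:146009797-146403721 on the minus strand, had 242, 297, 503 and 711 normalized counts in Mitol KO libraries and 468, 466, 414 and 485 in control libraries. Again libraries 1 and 2 were below and 3 and 4 above all control libraries, with means of 438 ± 214 and 458 ± 30.9 (SD, n = 4 each). The log2 fold change was -0.083 (95% interval -0.67 to 0.50, edgeR adjusted p = 0.876), so that a difference of this size in either direction was not detectable. Other sums differed among the Mitol KO libraries as well. Megakaryocyte and platelet markers summed to 2400 in library 1, 3347 in library 2, 4340.0 in library 3 and 5139 in library 4. Most of that sum came from Vwf and Itga2b. Gp9 and Treml1 rose in the same order, whereas Pf4 and Ppbp did not. G2/M genes were lowest in library 4. The part of these sums in the spread of Itpr2 was not tested. Raw counts of Itpr1 were 5.21 to 12.96 times those of Itpr2 in Mitol KO and 6.87 to 8.09 times in control libraries. They were 2.39 to 3.61 and 2.27 to 2.58 times those of Itpr3, and the groups overlapped for both ratios.

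Of 13 ER release and leak channel genes tested 1 was called (7.69%, beside 8.43% of all genes tested), and 8 had a negative log2 fold change. The called gene, Tmco1, encodes a channel that lets calcium leak from an overfilled ER. It rose from 452 ± 12.5 to 649 ± 49.8 normalized counts (log2 fold change 0.50, SE 0.097, edgeR adjusted p = 0.0144) and passed in 8 of 8 fits that left out a library. Of its 75-base words 34.3% lie in the overlapping antisense gene Gm57182, and without strand their reads cannot be told apart. The ryanodine receptors Ryr1 (log2 fold change -0.49, edgeR adjusted p = 0.183) and Ryr3 (-0.73, edgeR adjusted p = 0.132), a related family of ER release channels, were not called. Of 20 genes whose products bind or regulate IP3 receptors, 3 rose and 0 fell (15% called, beside 8.43% of all genes tested). Bok, a BCL2 family member that binds IP3 receptors, had 93.9, 89.4, 43.0 and 28.6 normalized counts in Mitol KO and 25.1, 10.6, 16.01 and 14.4 in control libraries (log2 fold change 1.94, SE 0.42, edgeR adjusted p = 0.0207). It passed in 4 of 8 fits that left out a library and was lost without Mitol KO libraries 1 (adjusted p = 0.0597) or 2 (0.0619) and control libraries 2 (0.0682) or 4 (0.0595). Itpripl1, related in sequence to an IP3 receptor-interacting protein, rose with a log2 fold change of 0.61 (SE 0.12, edgeR adjusted p = 0.0156), with 36.7% of its words shared with the antisense gene Gm57433. Fkbp1a, the immunophilin FKBP12 that binds calcium release channels, rose by 0.47 (SE 0.12, edgeR adjusted p = 0.0366), and passed only without Mitol KO library 4 or without control library 1 among the fits that left out a library (adjusted p up to 0.0999 in the rest). Of the words of Fkbp1a 12.2% are shared with the antisense gene Gm14167.

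Of 16 genes of IP3 formation and removal 2 fell and 0 rose (12.5% called, beside 8.43% of all genes tested). Plcb2, a phospholipase C that makes IP3 downstream of G protein-coupled receptors, had 4191, 4133, 4091 and 5081 normalized counts in Mitol KO libraries and 6777, 6455, 5705 and 6167 in control libraries. The groups did not overlap (log2 fold change -0.54, SE 0.093, edgeR adjusted p = 0.00889), and it passed in 8 of 8 fits that left out a library. Inpp1, a phosphatase that degrades inositol phosphates, fell by 0.50 on the log2 scale (SE 0.12, edgeR adjusted p = 0.0279) and passed in 3 of those 8 fits, without Mitol KO library 4 or control libraries 1 or 3.

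Mcu encodes the pore and lies at chr10:59282806-59452522 on the minus strand. Its normalized counts were 346, 357, 345 and 304 in Mitol KO libraries and 311, 316, 352 and 350.2 in control libraries. The groups overlapped fully (log2 fold change 0.0046, 95% interval -0.24 to 0.25, edgeR adjusted p = 0.986). Micu2, a gatekeeper of the pore, lies at chr14:58153706-58236767 on the minus strand and had 471, 469, 352 and 386 normalized counts against 378, 402, 409 and 410.4. Mitol KO libraries 1 and 2 were above and library 3 below all control libraries (log2 fold change 0.048, 95% interval -0.21 to 0.31, edgeR adjusted p = 0.834).

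Smdt1, which encodes EMRE, the small subunit that joins the pore to its gatekeepers, had 541, 464, 441 and 452 normalized counts in Mitol KO libraries and 361, 287, 336 and 308 in control libraries. Every Mitol KO library was above every control library (log2 fold change 0.54, SE 0.12, edgeR adjusted p = 0.0204), and 42.4% of its 75-base words also lie in the antisense gene Gm62022. Of the 8 fits that left out a library, Smdt1 passed in 5 and was lost without Mitol KO library 1 (adjusted p = 0.0583) and control libraries 2 (0.0683) or 4 (0.0552). The paralog Micu3, at a log2 fold change of -0.11 (edgeR adjusted p = 0.638), and the uniporter regulator Mcur1, at -0.032 (edgeR adjusted p = 0.887), were not called.

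Set against the pore within each library, raw counts of Smdt1 were 1.28 to 1.56 times those of Mcu in Mitol KO and 0.879 to 1.16 times in control libraries, and the groups did not overlap. Micu2 over Mcu, at 1.02 to 1.36 and 1.16 to 1.27, overlapped. Of 13 genes of other mitochondrial calcium and ion transport 1 was called (7.69%, beside 8.43% of all genes tested). Vdac1, the channel of the outer membrane through which calcium reaches the uniporter, rose from 1144 ± 90.4 to 1588 ± 259 normalized counts (log2 fold change 0.45, SE 0.12, edgeR adjusted p = 0.0345), and among the fits that left out a library it passed only without Mitol KO library 4 (adjusted p = 0.00529, and up to 0.104 in the others). Of the 75-base words of Vdac1 20.7% also lie in the antisense genes Gm57370 and Gm73988.

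Store-operated entry showed levels that overlapped between the groups for both of its central genes. Stim1, the ER calcium sensor, lies at chr7:101916979-102086526 on the plus strand and had 1275, 1174, 1178 and 1421 normalized counts in Mitol KO libraries and 1296, 1448, 1197 and 1299 in control libraries (log2 fold change -0.072, 95% interval -0.28 to 0.13, edgeR adjusted p = 0.667). Orai1, the channel of the plasma membrane, lies at chr5:123153043-123168535 on the plus strand and had 517, 568, 568 and 627 normalized counts against 696, 642, 523 and 489 (log2 fold change -0.060, 95% interval -0.33 to 0.21, edgeR adjusted p = 0.806). Control libraries 1 and 2 were above and control library 4 below every Mitol KO library. The Orai1 to Stim1 ratio of raw counts was 0.405 to 0.484 in Mitol KO and 0.377 to 0.537 in control libraries.

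The paralogs of these genes were not called. Orai2, which encodes a related channel subunit, had 407, 404, 505 and 551 normalized counts in Mitol KO libraries and 554, 744, 539.8 and 720.2 in control libraries, with 3 of 4 Mitol KO libraries below every control library (log2 fold change -0.47, SE 0.15, edgeR adjusted p = 0.0664). DESeq2 gave it an adjusted p of 0.0326. Stim2, a sensor of smaller falls in ER calcium, had a log2 fold change of 0.26 (edgeR adjusted p = 0.420), and Orai3 had 0.067 (edgeR adjusted p = 0.716). Of 11 store-operated entry genes 1 was called (9.09%, beside 8.43% of all genes tested). Esyt1, a protein that tethers the ER to the plasma membrane, rose from 1552 ± 178 to 2457 ± 105 normalized counts (log2 fold change 0.65, SE 0.093, edgeR adjusted p = 0.00455), and passed in 8 of 8 fits that left out a library.

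**Figure D3:**
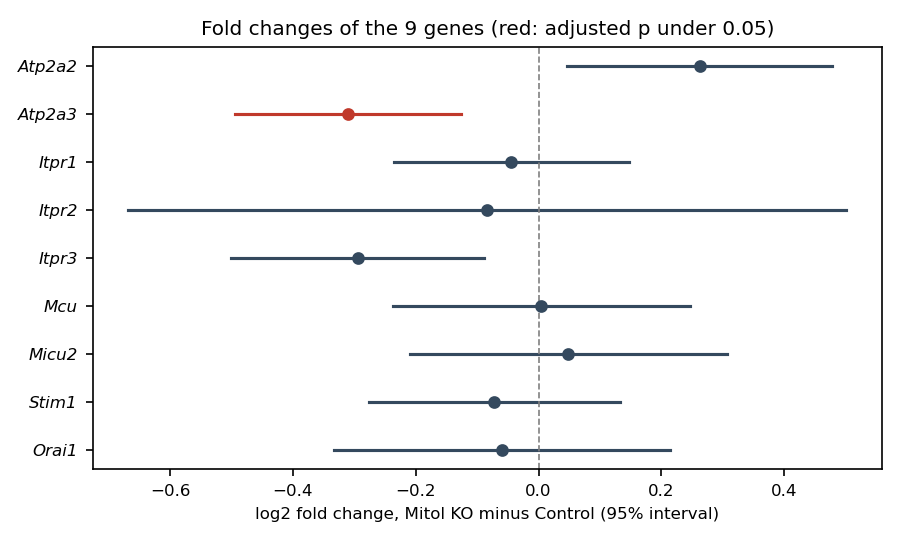
Log2 fold change of Mitol KO over control (x axis, points) with its 95% interval (lines) for the 9 genes from the edgeR fit. Atp2a3 (red, -0.31) is past the threshold, the intervals of Atp2a2 and Itpr3 leave out 0 without passing the adjusted threshold, and that of Itpr2 is the widest, from -0.67 to 0.50.

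Among themselves the 9 genes covered a wide range of levels. Per kilobase (kb) of the canonical GENCODE transcript, the mean of normalized counts in control libraries was 1464 per kb for Atp2a3, 433 for Atp2a2, 348 for Itpr1, 296 for Orai1, 295 for Stim1, 169 for Micu2, 156 for Itpr3, 115 for Mcu and 38.8 for Itpr2. The order in Mitol KO libraries was the same, from 1197 per kb for Atp2a3 down to 37.1 for Itpr2. Ranges over libraries overlapped in both groups between Itpr1 and Orai1 and between Orai1 and Stim1, in control libraries between Micu2 and Itpr3, and in Mitol KO libraries between Itpr3 and Mcu. Other neighbours in the order did not overlap. On this scale Atp2a3 was at percentile 98.9 and Itpr2 at percentile 32.4 of the genes with a known length. With the length of all annotated exons in place of the canonical transcript, Atp2a3 kept the highest level in both groups, whereas in control libraries Orai1 was at rank 2 and Atp2a2 at rank 4, and Mcu and Itpr2 changed places. No 75-base word of a member transcript occurred in the transcript of another of the 9.

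**Figure D4:**
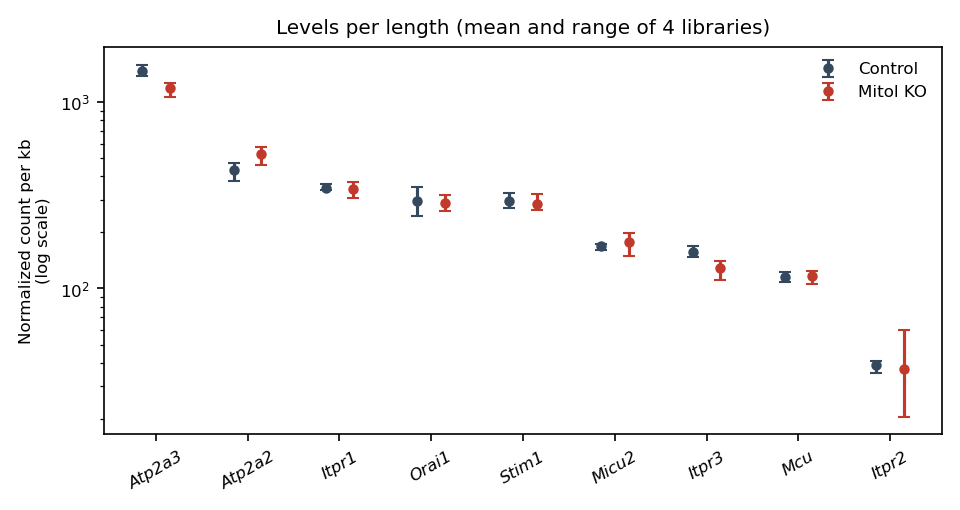
Normalized count per kb of canonical transcript (y axis, log scale) for the 9 genes, with the mean (point) and range (bar) of 4 libraries in control (dark) and Mitol KO (red) HSCs. Levels fall from 1464 per kb for Atp2a3 to 38.8 per kb for Itpr2 in control libraries, in the same order in Mitol KO libraries.

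The wider calcium pathway was described with 12 lists that hold 198 genes, of which 183 are in the table and 163 were tested, the 9 included. Past the threshold 10 were higher and 8 lower in Mitol KO HSCs, and with library size alone 8 were higher and 11 lower. Without the 9, 17 of 154 were called, which is 11.04%, beside 8.43% of all genes, and their median log2 fold change was 0.042, beside -0.020. DESeq2 called 18 higher and 14 lower of the 163, beside 1322 higher and 995 lower of all 16444 genes tested. Where a library was left out, between 3 and 23 were higher and between 4 and 13 lower.

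The ER luminal calcium-binding proteins, which buffer stored calcium and include chaperones, had 0 of 14 called by edgeR, 3 higher and 0 lower at an unadjusted p under 0.05, and 1 called by DESeq2 and by limma-voom each. Of 19 genes for ER-mitochondria contacts 1 was called (5.26%, beside 8.43% of all genes tested). At an unadjusted p under 0.05 the edgeR test had 7 higher and 0 lower. DESeq2 called 4 of the 19, all higher, beside 14.7% of all genes. The groups did not overlap for 5 of the 19 (26.3%, beside 15.4% of all genes). A positive log2 fold change was found for 17 of the 19, beside 7841 of all 16444 genes tested, with a median of 0.11. With library size alone it was 11 of 19, beside 6792 of all genes tested. The called gene was Hspa9, the mitochondrial chaperone mortalin, which links IP3 receptors to VDAC1 at contacts, with a log2 fold change of 0.47 (SE 0.12, edgeR adjusted p = 0.0324). It passed without Mitol KO library 4 or control library 1 and was lost in the other 6 fits that left out a library (adjusted p up to 0.0904). Of the 75-base words of Hspa9 16.8% also occur in the antisense genes Gm56488 and Gm56507 or in Hspa9-ps1.

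Of 24 genes of calmodulin, calcineurin and NFAT signalling 2 rose and 1 fell (12.5% called, beside 8.43% of all genes tested). Nfatc2, a transcription factor that enters the nucleus once calcineurin has dephosphorylated it, had 874, 928, 886 and 925 normalized counts in Mitol KO libraries and 1255, 1318, 1232 and 1558 in control libraries (log2 fold change -0.59, SE 0.095, edgeR adjusted p = 0.00694). Calm3, which encodes calmodulin, rose by 0.52 (SE 0.14, edgeR adjusted p = 0.0409) and Camkk1, a kinase activated by calmodulin, by 0.65 (SE 0.19, edgeR adjusted p = 0.0489). Nfatc2 passed in 8 of 8 fits that left out a library. Calm3 and Camkk1 passed in 2 each, without Mitol KO library 4 or control library 1, and had adjusted p up to 0.119 and 0.133 in the rest.

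Of 21 genes of plasma membrane entry and exchange 2 fell and 0 rose (9.52% called, beside 8.43% of all genes tested). The median log2 fold change of the list was -0.30. P2rx1, a cation channel opened by extracellular ATP, had 642, 636, 627 and 595 normalized counts in Mitol KO libraries and 986, 1123, 1013 and 1061 in control libraries. The groups were far apart (log2 fold change -0.76, SE 0.086, edgeR adjusted p = 0.00219), and its p-value was at rank 8 of all genes tested. Trpc6, a cation channel opened by diacylglycerol, had 469.6, 487, 322 and 347 against 698, 867, 810.1 and 1405 (log2 fold change -1.24, SE 0.21, edgeR adjusted p = 0.00844). Both passed in 8 of 8 fits that left out a library.

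**Figure D5:**
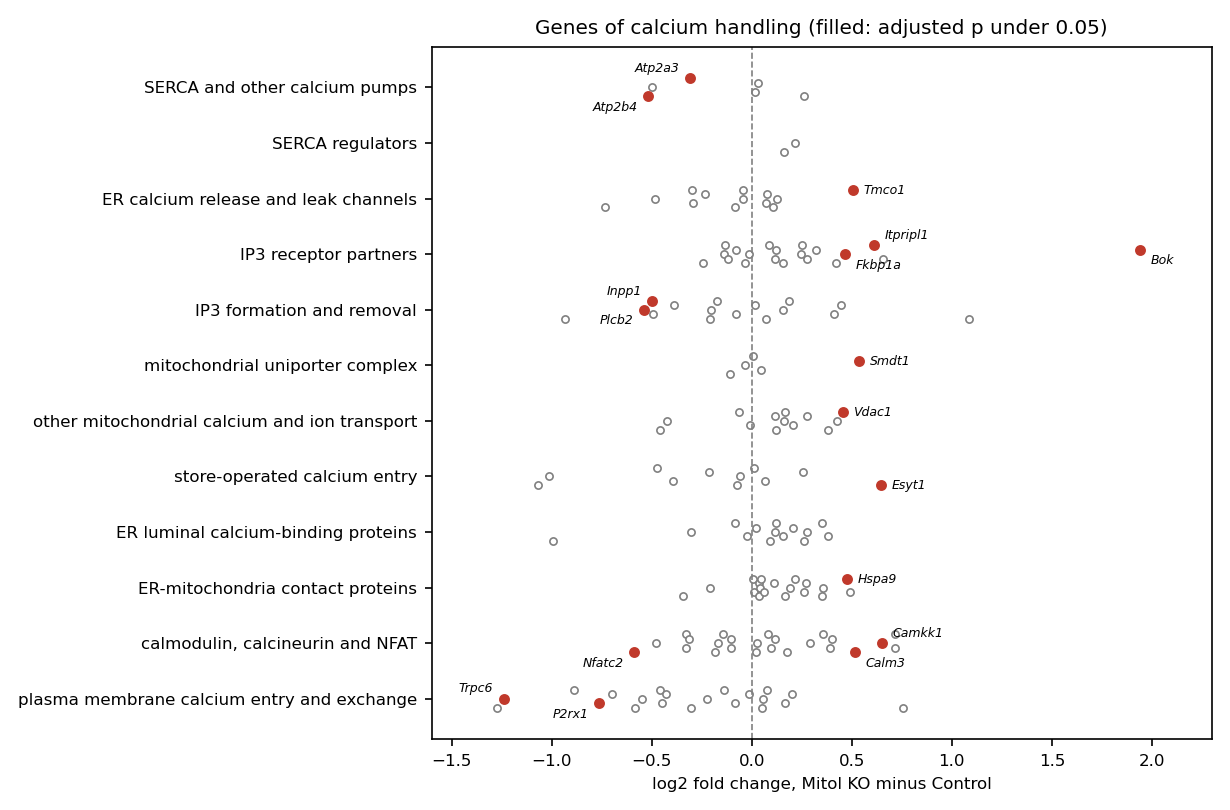
Log2 fold change of Mitol KO over control (x axis) of the tested genes reported here in 12 calcium pathway lists (rows), where filled red points are past the threshold and named, and open points are not. Called points lie on the positive side for ER leak channels, IP3 receptor partners and contact proteins. They lie on the negative side for pumps, IP3 formation and plasma membrane entry, and on both sides for the calmodulin list. Each list has few called points. Over all tested genes, 8 of 13 ER release and leak channel genes and 3 of 6 pump genes had a negative log2 fold change.

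The genes most like Atp2a3 over the 8 libraries were sought by the root mean square difference of log2 CPM (counts scaled to library size), each gene centred on its own mean, among 12012 genes with a mean of at least 50 normalized counts. The 4 with the smallest difference were Gm17089 (0.036), Cfl2 (0.051), Smad3 (0.052) and Atp8b2 (0.053). All 4 were lower in every Mitol KO library than in every control library, as the choice by likeness fixes, with log2 fold changes from -0.33 for Smad3 to -0.30 for Gm17089. None of the other 8 calcium handling genes was among them.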

How the data were processed

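The authors mapped 75 bp single-end reads to mm39 using STAR, merged the alignments (samtools) and obtained raw gene counts with subread, which were deposited unnormalized. The annotation and strand setting are not given in the sources used here, and the Nextera XT kit does not mark strand. The lowest row total among the 23094 rows was 11 counts. The 1029 rows without a gene symbol (0.335% to 0.467% of a library's counts) were left out.

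Counts of all named genes were fitted in edgeR (version 4.0.16, R 4.3.3) with TMM, its default filter and condition as the single term, and p-values were adjusted over 16444 genes. Normalized counts used DESeq2 (version 1.42.0) size factors. Alternatives were other normalizations, no filter, DESeq2, limma-voom (limma 3.58.1), a replicate block and each library left out. Single values were compared by exact permutation. The fits were tested on simulated counts. No 2 libraries of a group agreed within sampling noise. Intervals cover the spread between libraries, and without molecular identifiers a read need not be a separate molecule.

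The genes, pathway lists and marker lists were chosen with earlier results of these data known. Named were the 9 genes, Marchf5, called genes of each list (at most 5, by p), paralogs with at least 10 mean normalized counts, and the 5 genes most like the member with the lowest p. Some genes these rules name are not reported here. Hbb-bs and the genes near Atp2a3 were named after their values were seen. Positions came from GENCODE vM39 (20627 symbols matched a single gene) and promoters from RefSeq.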

Additional observations from a re-analysis of the deposited data

How the results depend on the processing

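Of 126 refits of single genes among the 9, 114 kept the direction, and the 12 that turned it were in 5 genes with a log2 fold change of at most 0.083 in size. With library size alone Mcu turned to -0.052 and Micu2 to -0.0084. Leaving out a library gave -0.073 to 0.0086 for Itpr1, -0.40 to 0.12 for Itpr2, -0.019 to 0.071 for Mcu, -0.0080 to 0.14 for Micu2 and -0.14 to 0.043 for Orai1. The number of the 9 lower past the threshold, 1 as reported, was 0 with DESeq2 size factors, 2 with library size alone, 0 with no filter and 0 with the replicate block, and ranged from 0 to 0 where a library was left out. The number higher, 0 as reported, ranged from 0 to 1 there. Of the calcium pathway genes 18 were higher and 14 lower with DESeq2, in place of 10 and 8, and 3 to 23 and 4 to 13 where a library was left out. Over all genes the calls numbered 1386, with 2317 for DESeq2, 359 without control library 2 and 2501 without Mitol KO library 4. The cause of these differences was not tested.

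The replicate numbers were not taken to pair the libraries, since same-numbered libraries had correlations of deviations of 0.080, -0.070, 0.053 and 0.067, and 2 of 4 correlated best with their own number. The replicate block gave 1652 calls over all genes and an adjusted p of 0.0527 for Atp2a3. The 100 cells and 4 libraries per group limit the precision. The interval of Itpr2 spans -0.67 to 0.50 on the log2 scale.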

Other observations

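Atp2a3, P2rx1 and Camkk1 are neighbours on chromosome 11 of GRCm39, all on the plus strand. P2rx1 begins 6004 bases beyond the end of Atp2a3, at chr11:72889875-72906026, and Camkk1 begins 25550 bases beyond it, at chr11:72909421-72933202. The log2 fold changes by edgeR were -0.31 for Atp2a3 (adjusted p = 0.0436), -0.76 for P2rx1 (adjusted p = 0.00219) and 0.65 for Camkk1 (adjusted p = 0.0489). Adjacent genes were thus called in opposite directions in the main fit. Of 8 fits that left out a library, P2rx1 passed in 8, Camkk1 in 2 and Atp2a3 in 0. Within 150000 bases of Atp2a3, 8 genes were tested with it included. Zzef1 (-0.16, edgeR adjusted p = 0.228), Gm6733 (-0.087, 0.876), Ncbp3 (0.20, 0.260) and Itgae (0.60, 0.474) were not called, and Haspin, a mitotic kinase gene, was higher at 140.1 ± 44.1 against 53.4 ± 16.2 normalized counts (log2 fold change 1.37, SE 0.28, edgeR adjusted p = 0.0177).

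Markers of other cells were present at differing levels. Of 7 progenitor and lineage surface genes 5 are in the table and 1, Cd48, was higher, at 39.6 against 11.8 normalized counts. The list summed to 2516 to 2748 in Mitol KO and 2127 to 2459 in control libraries, which did not overlap. All 4 of its tested genes had a positive log2 fold change (3 with library size alone), with a median of 1.03. Cd34 and Flt3, which held most of the sum, had log2 fold changes of 0.010 and 0.45 (edgeR adjusted p = 0.969 and 0.337). Cd48 and Itgam had low counts. Of 8 megakaryocyte and platelet genes 6 are in the table and 1, Pf4, was lower, with list sums of 2400 to 5139 in Mitol KO and 3181 to 4839 in control libraries. Of 10 red cell genes 9 are in the table and 1, Hbb-bt, was higher. By edgeR 0 of 2 tested neutrophil genes, 0 of 1 B cell gene, 0 of 2 T cell genes and 0 of 1 mast cell and basophil gene were called. For neutrophils 1 had an unadjusted p under 0.05 and 1 was called by DESeq2, and for the other 3 lists both numbers were 0. Neutrophil genes summed to 490.0 to 1026 and 405 to 619, B cell genes to 136 to 150.3 and 145 to 204, T cell genes to 189 to 259 and 172 to 200.5, and mast cell and basophil genes to 7.32 to 13.8 and 11.3 to 21.1. The part of these markers in the results was not tested.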
